A study of Homo sapiens with 6 samples.

Results

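The comparison concerned total polyA+ mRNA of Hep3B cells set against total mRNA of HCCLM3 and of MHCC97H cells, 3 lines labelled as hepatocellular carcinoma lines. It used 3 of the 6 libraries of the series, the other 3 being mRNA bound to ribosome-nascent chain complexes (RNC-mRNA) of the same lines. The RNA of 3 cultures was pooled for each library, and each line had 1 library per fraction, so there was no replicate spread and no test, and every interval below covers counting error only. Genes were compared where the deposited RPKM, a read count scaled to gene-model length and library size, reached 1 in at least 1 of the 3 mRNA libraries, which held for 12851 of 19089 genes. For each gene the log2 ratio of (RPKM + 0.1) was taken for Hep3B over HCCLM3 and for Hep3B over MHCC97H, with a gene missing from a table set to 0. A gene is called higher or lower in Hep3B where both ratios reached 4 in the same direction.

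The medium for Hep3B was MEM with 15% serum (FBS) plus sodium pyruvate, that of the other 2 lines was DMEM with 10%, and the antibiotics were the same. Line and medium therefore cannot be told apart. None of the lines is labelled as transfected or treated, and each is a long-established culture, so the values describe these cultures and not tumours. HCCLM3 and MHCC97H are known as highly metastatic lines with a common parental origin, so they are not independent, and both ratios share the same Hep3B library. Since the libraries are bulk, fewer cells of a kind and less RNA per cell cannot be told apart.

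Hepatocytes are known for secreting most plasma proteins, among them albumin, clotting factors, complement and apolipoproteins, and for clearing ammonia and foreign compounds. A set of transcription factors, including the HNF4, FOXA and ONECUT families and several nuclear receptors, is known to hold that programme. Liver cancer lines keep it to different degrees, and some gain fetal genes, matrix and calcium-binding genes or detoxifying enzymes.

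Over all genes compared, 8.74% were higher in Hep3B than in both other lines and 7.73% lower. Higher were 21 of 24 measured plasma proteins outside the clotting, complement and apolipoprotein lists, 11 of 26 hepatocyte transcription factors, 11 of 20 oncofetal and progenitor genes and all 4 FGF receptors. Lower were 7 of 12 measured S100 proteins, 8 of 11 aldo-keto reductases, 6 of 9 galectins, 5 of 8 mucins and the surface receptors MET and CD44. In subsets of the ribosomal protein, respiratory chain and core machinery genes, no member passed a ratio of 4 against both lines. Many of the gene families examined had calls in both directions, which large families can also hold at the shares of all genes.

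The bases just before the transcription start are shown for 7 chosen genes on either side of the difference, so that the genes behind the values can be seen. They are RefSeq sequences of build GRCh38.p14, 150 bases each, 5′ to 3′ on the gene's strand. Capitals mark the motifs that were searched on both strands: TATAAA, the core promoter TATA box, GTTAAT, letters known from liver promoters, CAAAGTCCA, a site of HNF4, and TGANTCA, the AP-1 site. The first 4 genes were higher in Hep3B and the last 3 lower. Every gene shown holds a searched motif, so the 7 do not stand for the promoters of either side.
ALB, chr4:73404137-73404286, plus strand: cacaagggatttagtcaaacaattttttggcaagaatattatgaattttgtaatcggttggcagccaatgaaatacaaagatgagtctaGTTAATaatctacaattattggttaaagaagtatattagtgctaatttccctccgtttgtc
AFP, chr4:73436071-73436220, plus strand: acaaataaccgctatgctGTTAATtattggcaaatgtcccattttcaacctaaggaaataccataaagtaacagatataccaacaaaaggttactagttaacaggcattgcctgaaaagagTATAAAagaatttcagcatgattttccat
FABP1, chr2:88128063-88128212, minus strand: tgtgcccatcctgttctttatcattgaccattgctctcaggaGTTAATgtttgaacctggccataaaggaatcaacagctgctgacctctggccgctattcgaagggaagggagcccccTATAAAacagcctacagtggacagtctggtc
PROZ, chr13:113158498-113158647, plus strand: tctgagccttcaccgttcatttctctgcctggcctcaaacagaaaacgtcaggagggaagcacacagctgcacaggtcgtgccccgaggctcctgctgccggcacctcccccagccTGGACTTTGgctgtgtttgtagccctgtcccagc
MMP7, chr11:102530748-102530897, minus strand: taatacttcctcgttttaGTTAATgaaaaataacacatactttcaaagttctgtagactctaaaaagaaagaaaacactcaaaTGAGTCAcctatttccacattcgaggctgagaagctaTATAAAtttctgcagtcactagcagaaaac
S100A2, chr1:153565845-153565994, minus strand: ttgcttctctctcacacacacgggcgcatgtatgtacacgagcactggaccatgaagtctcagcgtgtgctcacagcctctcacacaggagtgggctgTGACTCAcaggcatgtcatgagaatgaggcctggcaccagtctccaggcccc
S100A4, chr1:153545807-153545956, minus strand: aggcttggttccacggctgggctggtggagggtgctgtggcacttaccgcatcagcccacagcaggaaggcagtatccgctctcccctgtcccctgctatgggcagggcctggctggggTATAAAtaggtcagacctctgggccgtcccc

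The ALB and AFP genes, which encode albumin and its fetal counterpart, both held GTTAAT, beginning 61 and 132 bases before the start. FABP1, the liver fatty acid binding protein, held GTTAAT at 108 bases and TATAAA at 31 bases before the start. PROZ, a vitamin K-dependent plasma protein, held the HNF4 letters on the opposite strand at 34 bases before the start. On the lower side, MMP7, a secreted protease, held TGAGTCA at 67 bases, TATAAA at 30 bases and also GTTAAT at 132 bases. S100A2 held TGACTCA at 52 bases, and S100A4 held TATAAA at 31 bases. Over all 27305 promoters of the table, read from 250 bases before to 50 after the start, TATAAA was in 12%, GTTAAT in 6.89%, CAAAGTCCA in 0.359% and TGANTCA in 7.76%. A match is a description of letters. A comparison of motif shares between gene sets was void and is not given, because fewer than 80% of the members had a promoter in the table (74.7% of the higher and 72.5% of the lower genes).

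Of the 12851 genes, 1123 were higher in Hep3B than in both other lines (8.74%) and 994 were lower (7.73%). Against HCCLM3 alone, 1264 genes were higher (9.84%) and 1113 lower (8.66%), and against MHCC97H alone 1201 were higher (9.35%) and 1079 lower (8.40%). Genes higher against both made up 88.8% of those higher against HCCLM3 and 93.5% of those higher against MHCC97H. For the lower genes these shares were 89.3% and 92.1%. No gene passed the ratio in opposite directions against the 2 lines. Within a ratio of 2 in both comparisons were 7334 genes, 57.1% of those measured, and the median log2 ratio over all genes was 0.023 over HCCLM3 and -0.001 over MHCC97H.

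**Figure D1:**
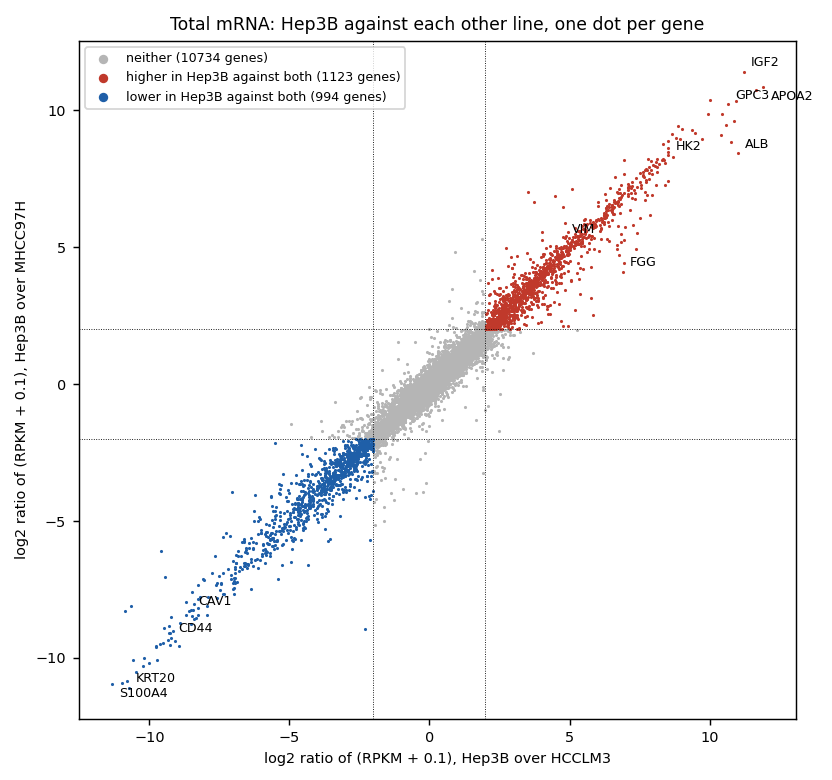
Log2 ratio of (RPKM + 0.1) of Hep3B over HCCLM3 (horizontal) against that over MHCC97H (vertical), 1 dot per gene for 12851 genes. The 1123 genes higher and 994 genes lower against both lines are coloured. Both axes share the Hep3B library, so closeness to the diagonal is built in.

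The called genes were often close to off on their low side. Among the higher genes, 762 (67.9%) were under 1 RPKM in both other lines and 323 under 0.1 RPKM. Among the lower genes, 663 (66.7%) were under 1 RPKM in Hep3B and 316 under 0.1 RPKM. No reads at all were found for 21 of the higher genes in both other lines and for 41 of the lower genes in Hep3B. A ratio of 64 in both comparisons was reached by 150 higher and 108 lower genes. The called genes also held much of the RNA: the higher genes took 16.3% of the gene reads of Hep3B, 0.782% in HCCLM3 and 0.851% in MHCC97H. The lower genes took 1.12% of the reads in Hep3B, 14% in HCCLM3 and 13.9% in MHCC97H.

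Depth was similar, with 119086844, 119888529 and 132684373 reads in genes and 11742, 11467 and 11489 genes at 1 RPKM or more in Hep3B, HCCLM3 and MHCC97H. At this depth FAM105A, at 1.0 RPKM in HCCLM3, had 468 reads, so counting error matters for genes listed near 0. HCCLM3 and MHCC97H stood within a ratio of 2 of each other for 92.2% of the higher and 91.5% of the lower genes, beside 97.2% of all genes.

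The labels were first checked on genes that are known to mark these cells. The keratins of liver epithelium were high in all 3 lines: KRT8 was at 694 RPKM in Hep3B against 1824 in HCCLM3 and 1700.0 in MHCC97H, and KRT18 at 388, 679 and 616. HNF4A, the central hepatocyte factor, was detected in all 3, at 94.9 RPKM in Hep3B against 11.3 in HCCLM3 and 12 in MHCC97H. Of 32 measured cell cycle control genes, 1 was higher (3.12%, beside 8.74% of all genes) and 4 were lower (12.5%, beside 7.73%). CDKN1A, the cell cycle inhibitor p21, was at 1.98 RPKM in Hep3B against 22.8 in HCCLM3 and 26.0 in MHCC97H, and PMAIP1, a cell death protein, at 0.00773 (2 reads), 5.89 and 7.4. RB1, the retinoblastoma protein, was low in every line, at 0.261, 0.320 and 0.479 RPKM.

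Plasma protein genes were higher in Hep3B across several systems. Of 19 measured coagulation factors and inhibitors, 17 were higher in Hep3B and none lower, with median log2 ratios of 5.84 and 5.33 over HCCLM3 and MHCC97H. F2, prothrombin, was at 270.0 RPKM in Hep3B against 3.06 in HCCLM3 and 4.83 in MHCC97H. F7, which starts the tissue factor pathway, was at 79.9, 0.136 and 0.417, a ratio of RPKM of 587 over HCCLM3 (451 to 779) and 192 over MHCC97H (166 to 223). Hep3B was the high library for both factors, and both other lines lay far below it. F10, which converts prothrombin, was at 63.0, 0.249 and 0.203 RPKM, and F12, of the contact system, at 19.4, 0.113 and 0.150. The inhibitors of clotting and of clot lysis followed. SERPIND1, heparin cofactor II, was at 107, 0.780 and 0.420 RPKM, and SERPINF2, which blocks plasmin, at 143, 0.748 and 0.874. CPB2, which slows clot lysis, had 10.2 RPKM in Hep3B, no reads in HCCLM3 and 0.00408 RPKM in MHCC97H. Fibrinogen was uneven among its chains. FGG was at 36.5, 0.205 and 2.02 RPKM and called higher, but FGB was at 5.0, 0.803 and 16.5, so that MHCC97H had more of it than Hep3B.

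Complement, the plasma cascade that marks and lyses microbes, had 14 of 21 measured genes higher and 2 lower, with medians of 2.87 and 3.30. C3, its central component, was at 581 RPKM in Hep3B against 1.04 in HCCLM3 and 0.813 in MHCC97H. Parts of the attack complex and of the lectin branch behaved likewise, with C8G at 85.3, 1.12 and 1.58 RPKM and MASP1 at 14.1, 0.117 and 0.115. SERPING1, the inhibitor of the first component, was at 26.1 RPKM in Hep3B and rested on 4 reads in HCCLM3 and 2 in MHCC97H. Against MHCC97H its ratio was 4163 with a counting interval of 1152 to 34382. Among the lower genes was CD55, decay accelerating factor, which protects host cells, at 1.35, 11.1 and 13 RPKM.

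Lipid carriers and the remaining secreted proteins gave the same picture. Of 17 measured apolipoproteins and lipoprotein assembly genes, 12 were higher and 1 lower, and of 24 other plasma proteins 21 were higher and none lower, with medians of 6.32 and 6.09. AHSG, fetuin-A, was at 4064 RPKM in Hep3B against 3.79 in HCCLM3 and 2.94 in MHCC97H, ratios of 1072 (1002 to 1148) and 1381 (1283 to 1488). A2M, a broad protease trap, was at 152, 0.0540 and 0.0607 RPKM. The gene listed as C19orf80 is ANGPTL8, a secreted regulator of lipoprotein lipase, and was at 951, 0.574 and 0.924 RPKM. These 3 genes were far lower in the other 2 libraries than in Hep3B. AHSG was still detected there, with 843 reads in HCCLM3 and 719 in MHCC97H. APOE was at 2098, 10.5 and 9.73 RPKM, APOC3, which slows triglyceride clearance, at 73.6, 0.166 and 0.197, and TF, transferrin, at 884, 11.1 and 8.31. TTR, which carries thyroxine, was at 69.2, 0.322 and 0.278 RPKM, and HPX, which binds heme, at 28.9, 0.0978 and 0.131. The exception was APOL1, of the trypanosome lytic factor, at 1.77 RPKM in Hep3B against 89.5 in HCCLM3 and 46.5 in MHCC97H. SAA4, a constitutive serum amyloid A, had 755 reads in Hep3B and none in the others, which made it at least 246-fold higher than in HCCLM3 and at least 271-fold higher than in MHCC97H against a floor of 3 reads per library. APOA2 and the overlapping model AL590714.1 had nearly the same values, and ORM1 and ORM2 are near-identical copies, so their reads may be divided between them.

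From other lists, 3 genes of the hepatocyte surface serve as examples, chosen after their values were seen. ASGR2, a subunit of the asialoglycoprotein receptor that clears desialylated plasma proteins, was at 394, 0.191 and 0.612 RPKM. TMPRSS6, the membrane protease known to restrain hepcidin, was at 41.5, 0.0567 and 0.0666 RPKM. GJB1, connexin 32, the main hepatocyte gap junction protein, was at 35.5, 0.0485 and 0.0257 RPKM. Each of the 3 was called higher, and in none did HCCLM3 and MHCC97H lie as far from each other as from Hep3B.

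Of 26 measured hepatocyte transcription factors, 11 were higher in Hep3B and 1 lower, with medians of 2.17 and 1.24. The steepest difference was in factors nearly absent from the other lines. ONECUT1, HNF6, was at 28.8 RPKM in Hep3B against 0.316 in HCCLM3 and 0.633 in MHCC97H. PROX1, needed for early liver growth in mice, was at 24.6, 1.27 and 0.687 RPKM, FOXA3 at 43.5, 3.57 and 2.52, and NR5A2, a receptor of bile acid synthesis genes, at 9.73, 0.321 and 0.258. Other members stood close to level. FOXA2 was at 31.6, 39.5 and 35.0 RPKM, and HNF4G at 2.77, 2.43 and 3.15. The xenobiotic receptors were split: NR1I3, CAR, was at 8.46, 1.24 and 1.24 RPKM, and NR1I2, PXR, at 0.0341, 1.08 and 0.798. FOXA1 passed the ratio against HCCLM3 alone, with 45.4 RPKM in Hep3B against 6.46 in HCCLM3 and 17.6 in MHCC97H. Outside the list, NR0B1, the orphan receptor DAX1, went the other way, with 1 read in Hep3B against 42.5 RPKM in HCCLM3 and 35.8 in MHCC97H, ratios of 11410 (2047 to 450703) and 9614 (1725 to 379770).

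**Figure D2:**
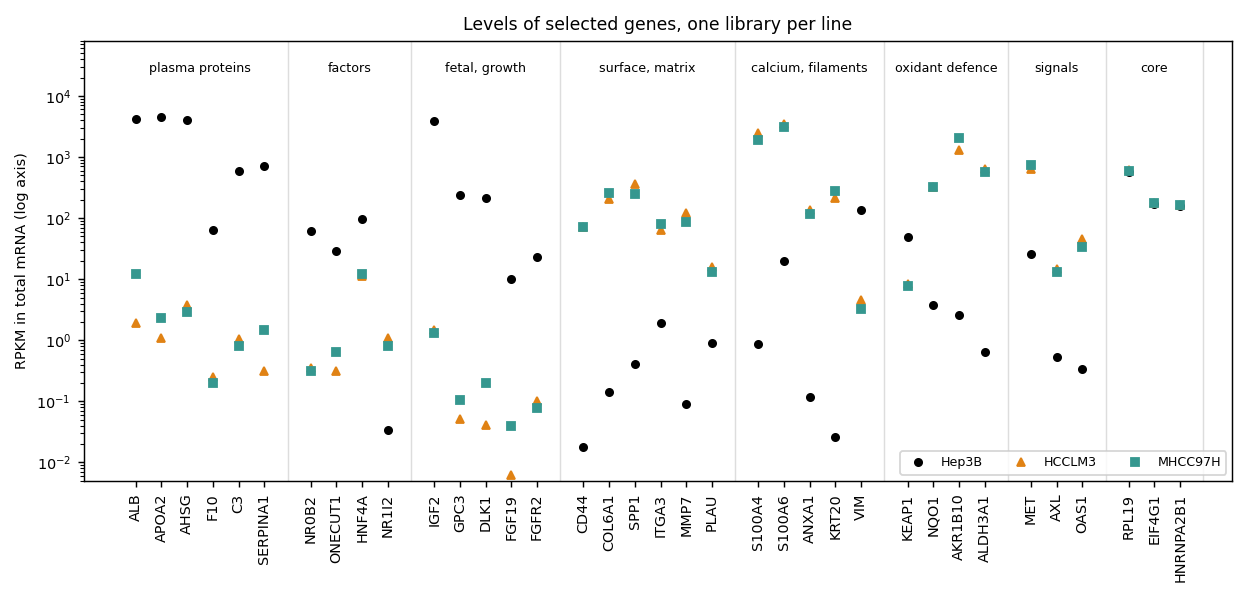
RPKM in total mRNA on a log axis for 36 genes grouped by role, with 1 symbol per line and 1 library per symbol. Plasma protein genes sit far above the other lines in Hep3B (C3 at 581, 1.04 and 0.813), surface and oxidant defence genes show the reverse order, and RPL19 at 577, 616 and 585 RPKM shows a level gene.

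Nitrogen metabolism was in good part on the side of Hep3B. Of 25 measured genes of the urea cycle and amino acid catabolism, 13 were higher and 2 lower, with medians of 2.47 and 2.59. GLDC, of the glycine cleavage system, was at 54.4 RPKM in Hep3B against 0.0695 in HCCLM3 and 0.0242 in MHCC97H. CBS, which starts transsulfuration, was at 224, 20.6 and 26.8 RPKM. In each, Hep3B was the high library by a wide margin. CPS1, the entry enzyme of the urea cycle, was low everywhere, at 2.01, 0.280 and 0.231 RPKM, and ARG1, its last enzyme, at 2.30, 0.0301 and 0.0229. TDO2, which opens the kynurenine path, was on the other side, at 0.106, 1.40 and 2.89 RPKM.

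Sugar metabolism was divided by isoform. Of 25 measured glycolysis genes, 3 were higher and 7 lower, and the medians were -1.52 and -1.30. LDHB, the lactate dehydrogenase subunit of heart type, was at 0.632 RPKM in Hep3B against 529 in HCCLM3 and 515 in MHCC97H, ratios of 837 (704 to 1002) and 815 (686 to 976) in favour of the other lines. LDHA was at 109, 301 and 244 RPKM and was not called. PFKP, the platelet phosphofructokinase, was at 0.457, 135 and 121 RPKM. PKLR, the pyruvate kinase of liver and red cell, was at 35.3, 0.0279 and 0.0650 RPKM, and PKM, the common form, at 214, 1431 and 1707. PGAM2, the muscle type mutase, joined PKLR on the high side with 16.6, 2.07 and 1.77 RPKM. The hexokinases were split too, with HK2 at 58.2, 0.0587 and 0.0764 RPKM and HK1 at 0.0792, 61.9 and 54.6. SLC2A2, the liver glucose transporter, was at 11.2 RPKM in Hep3B with 0 reads in HCCLM3 and 2 in MHCC97H, and SLC2A1, the general one, at 8.03, 46.2 and 35.3. FBP1, a gluconeogenic enzyme, was higher in Hep3B at 7.28, 0.398 and 0.730 RPKM.

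Among 39 measured genes of fatty acid and lipid droplet metabolism, 10 were higher and 2 lower, with medians of 0.16 and 0.11, so most members were not called. FABP1 was at 84.0 RPKM in Hep3B against 0.0258 in HCCLM3 and 0.0336 in MHCC97H. ELOVL2, which lengthens polyunsaturated fatty acids, was at 27.9 RPKM in Hep3B and had 1 read in each other library. MLXIPL, the carbohydrate response factor ChREBP, was at 71.4, 1.5 and 3.81 RPKM. The lipid droplet coats PLIN4 and PLIN5 were at 40.5 and 15.5 RPKM in Hep3B, at 2.88 and 0.417 in HCCLM3 and at 4.55 and 0.499 in MHCC97H. FADS2, a desaturase, was lower at 9.92, 68.7 and 59.2 RPKM.

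Detoxifying enzymes went both ways. Of 20 measured cytochromes P450, 4 were higher and 6 lower. CYP1A1, the classic target of the aryl hydrocarbon receptor, was at 17.7 RPKM in Hep3B against 0.0888 in HCCLM3 and 0.138 in MHCC97H, and CYP1B1, another target, was at 0.471, 2.57 and 6.60. CYP24A1, which inactivates vitamin D, was at 0.194, 91.1 and 46.7 RPKM, beside its receptor VDR at 0.136, 1.33 and 2.55. Of 35 measured conjugating enzymes, 9 were higher and 9 lower. SULT1E1, the estrogen sulfotransferase, was at 6.65 RPKM in Hep3B with 4 and 3 reads in the others, and UGT2B4 was at 17.0, 0.289 and 0.210. GSTP1 was lower, at 1.30, 79.5 and 64.7 RPKM. UGT1A8 had 1.02, 151 and 141 RPKM, but the UGT1A models share exons, so the member cannot be fixed from gene counts.

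The genes known as targets of NRF2, the factor that answers oxidants, were mostly lower in Hep3B. Of 26 measured, 16 were lower and 1 higher, with medians of -2.70 and -2.60. NQO1, a quinone reductase, was at 3.75 RPKM in Hep3B against 323 in HCCLM3 and 324 in MHCC97H, ratios of 85.9 (81.6 to 90.6) and 86.4 (82.0 to 91.1). AKR1B10, a reductase of reactive aldehydes, was at 2.56, 1319 and 2037 RPKM, and TXNRD1, thioredoxin reductase, at 25.8, 521 and 548. The 2 other lines were close to each other in each, and Hep3B was far below them. Enzymes of the pentose phosphate path were lower as well, with PGD, which supplies NADPH, at 67.9, 424 and 442 RPKM and TALDO1 at 111, 673 and 622. GCLM, the modifier subunit of glutathione synthesis, was at 2.17, 45.6 and 48.6 RPKM, whereas its catalytic partner GCLC, at 14.7, 21.5 and 31.3, was not called. SLC7A11, the cystine importer, was at 3.62, 16 and 18.9 RPKM. The single higher gene was KEAP1, which targets NRF2 for degradation, at 48.9, 8.44 and 7.71 RPKM, ratios of 5.80 (5.59 to 6.02) and 6.34 (6.11 to 6.58). NFE2L2, which encodes NRF2 itself, was at 51.5, 22.4 and 21.1 RPKM and was not called.

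The aldo-keto reductase family had 8 of 11 measured members lower and none higher, and 4 of the 8 are in the NRF2 list. AKR1C1, a hydroxysteroid dehydrogenase, was at 0.149, 255 and 290 RPKM, and AKR1C3 at 0.267, 225 and 271. AKR1C1 to AKR1C4 are close copies, and the rule by which reads were divided among them is not stated here. ALDH3A1, an aldehyde dehydrogenase of the cornea and of some tumours, was at 0.636, 642 and 578 RPKM. GPX2, a glutathione peroxidase of the gut, was at 2.64, 532 and 424 RPKM, and its relative GPX7, of the endoplasmic reticulum, went the other way with 20.1, 0.0752 and 0.451.

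**Figure D3:**
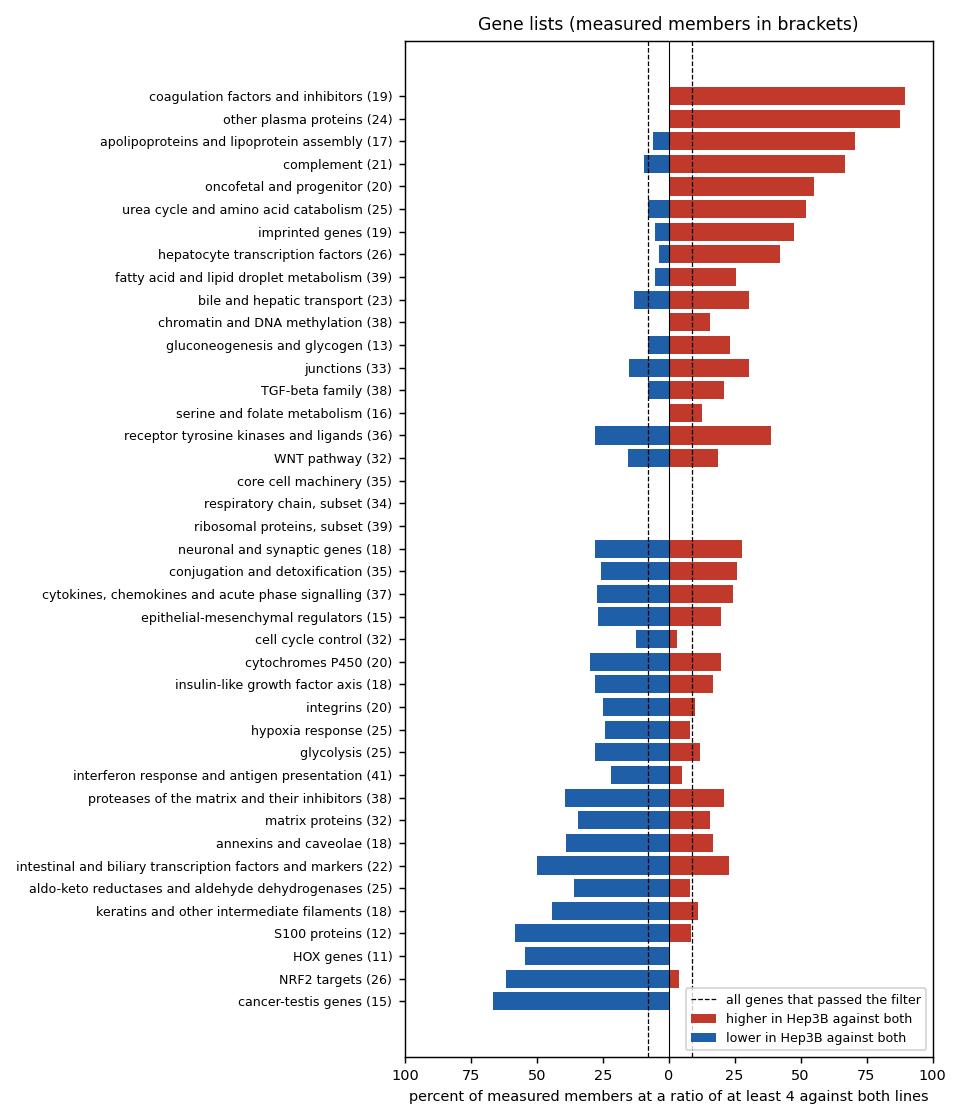
Percent of the measured members of 41 gene lists at a ratio of at least 4 against both lines, higher in Hep3B to the right and lower to the left, with the number measured in brackets. Dashed lines mark all genes, 8.74% higher and 7.73% lower. Coagulation factors and other plasma proteins reach farthest right, and ribosomal, respiratory chain and core genes have no bar.

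A list's share needs care in reading, since a gene that passed 1 RPKM only in Hep3B, or only in the others, had to differ. At 1 RPKM in Hep3B alone were 1136 genes, and in both other lines but not in Hep3B 872. The lists and the members named were also chosen with earlier results of these data known, so the counts describe the lists and do not test them.

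Fetal and progenitor genes were higher in Hep3B in 11 of 20 measured members and lower in none, with medians of 2.51 and 3.55. LIN28B, which blocks let-7 maturation, was at 9.56 RPKM in Hep3B against 0.00559 in HCCLM3 and 0.00382 in MHCC97H. PROM1, the stem cell surface marker CD133, was at 30.6 RPKM in Hep3B with 6 reads in HCCLM3 and 2 in MHCC97H. SALL4, a zinc finger factor of embryonic cells, was at 8.33, 0.513 and 0.431 RPKM, and TRIM71, another let-7 related fetal gene, at 20.5, 0.507 and 0.0464. Not all fetal genes differed, as IGF2BP3 was at 25.1, 14.5 and 13.4 RPKM and SOX4 at 78.5, 76.0 and 72.6. Imprinted genes, which are expressed from a single parental copy, were higher in 9 of 19 measured members and lower in 1. PLAGL1, a zinc finger factor of that network, was at 4.91 RPKM in Hep3B with 3 reads in each other line, and PEG3 was at 2.65 RPKM with 0 and 1 reads. PEG10 separated the other 2 lines, at 82.4 RPKM in Hep3B against 7.20 in HCCLM3 and 0.529 in MHCC97H. PHLDA2, a growth-restraining placental gene, was the lower member, at 24.3, 221 and 220.0 RPKM.

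The insulin-like growth factor axis was split between ligand and binding proteins. The ligand IGF2 was higher, as was IRS2, the adaptor below the receptor, at 36.7, 0.395 and 0.534 RPKM. Of the 7 IGF binding proteins, 5 were lower and none higher: IGFBP4 was at 5.50, 117 and 161 RPKM and IGFBP6, which prefers IGF2, at 0.979, 151 and 49.9. The receptor IGF1R was level, at 5.01, 5.97 and 5.66 RPKM.

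Receptor tyrosine kinases and their ligands had calls on both sides, 14 higher and 10 lower of 36 measured. All 4 FGF receptors were higher in Hep3B. FGFR2 was at 22.8 RPKM in Hep3B against 0.103 in HCCLM3 and 0.0790 in MHCC97H, FGFR3 at 159, 7.65 and 9.65, and FGFR4, the hepatocyte form, at 199, 32.9 and 34.1. KLB, the coreceptor that lets FGFR4 bind FGF19, was at 15.0, 0.373 and 0.465 RPKM. FGF19, the ligand that represses bile acid synthesis, was at 10.2 RPKM in Hep3B with 2 reads in HCCLM3 and 14 in MHCC97H. So ligand, coreceptor and receptor mRNAs were all present in Hep3B, and the ligand was near 0 in the others. PDGFRB and PDGFRA, known from mesenchymal cells, were at 9.02 and 3.30 RPKM in Hep3B and under 0.1 in both others. ERBB3 was at 68.0, 4.65 and 9.03 RPKM.

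The kinases of the other lines were different ones. MET, the receptor of hepatocyte growth factor, was at 26.1 RPKM in Hep3B against 638 in HCCLM3 and 726 in MHCC97H, ratios of 24.5 (24.2 to 24.8) and 27.8 (27.5 to 28.2). AXL was at 0.523, 14.9 and 13 RPKM, EPHB6, an Eph receptor without kinase activity, at 0.00684, 28.4 and 15.2, and EPHB2 at 0.127, 5.62 and 3.72. The ERBB ligand NRG1 was at 0.0434, 10.8 and 3.51 RPKM. EGF had no reads in Hep3B and 1.05 and 1.31 RPKM in the others, while its receptor EGFR, at 34.1, 10.2 and 11.9, was not called.

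WNT genes were called on both sides. Of 32 measured, 6 were higher (18.8%, beside 8.74% of all genes) and 5 lower (15.6%, beside 7.73%). WNT5A, a ligand of the noncanonical branch, was at 0.00997, 10.1 and 6.90 RPKM, and AXIN2, a common readout of beta-catenin signalling, at 1.03, 30.0 and 20.6. LEF1 and TCF7L1, DNA-binding partners of beta-catenin, were higher in Hep3B, LEF1 at 1.23, 0.0266 and 0.00604 RPKM and TCF7L1 at 24.9, 1.02 and 1.69. Of 38 measured TGF-beta family genes, 8 were higher and 3 lower. INHBE, a liver activin subunit, was at 80.4, 0.649 and 0.479 RPKM, and FST, which binds activin, at 5.23, 0.0212 and 0.0331. BMP6, known as the liver signal to hepcidin, was lower at 0.116, 12.1 and 16.2 RPKM, as was TGFB2 at 0.955, 8.36 and 7.55.

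Of 41 measured interferon response and antigen presentation genes, 9 were lower in Hep3B and 2 higher, with medians of -0.50 and -0.75. STAT2 and IRF9, which carry the interferon signal to the nucleus, were level, STAT2 at 16.5 RPKM in Hep3B against 12.1 in HCCLM3 and 13.6 in MHCC97H and IRF9 at 1.30, 1.01 and 1.08. OAS2, which senses viral RNA, was at 0.0159, 4.56 and 1.75 RPKM, and PSMB8, an immunoproteasome subunit, at 0.385, 16.1 and 15.7. IFI16, a sensor of DNA, had no reads in Hep3B, and the others had at least 2288-fold (HCCLM3) and 2647-fold (MHCC97H) more against a floor of 3 reads. HLA-B, at 13.9, 7.68 and 15.3 RPKM, and B2M, at 76.2, 87.0 and 122, were not called.

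Cytokine signalling gave 9 higher and 10 lower of 37 measured genes. CXCL12, the ligand of CXCR4, was at 19.1 RPKM in Hep3B with 1 read in HCCLM3 and 12 in MHCC97H, and its scavenger receptor CXCR7 (now ACKR3) was the reverse, at 0.0615, 19.2 and 14.8 RPKM. The receptors of the interleukin 6 family OSMR and LIFR were lower, at 0.156, 8.77 and 8.81 RPKM and at 0.0261, 0.774 and 1.06. IL13RA2, a decoy receptor, had no reads in Hep3B, and the others had at least 2346-fold and 1278-fold more. CCL20 was higher in Hep3B, at 43.6, 2.46 and 1.53 RPKM.

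Transport and hypoxia genes also had calls in both directions. Of 23 measured bile and hepatic transport genes, 7 were higher and 3 lower. ATP7B, the copper pump of bile excretion, was at 7.91 RPKM in Hep3B against 0.301 in HCCLM3 and 0.229 in MHCC97H, and SLC22A9, an organic anion carrier, at 16.6, 0.108 and 0.129. ABCG2, an efflux pump, was lower at 0.494, 14.5 and 16.8 RPKM. Of 25 measured hypoxia response genes, 2 were higher (8.0%) and 6 lower (24.0%). CA12, a carbonic anhydrase, was at 4.84, 46.6 and 79.3 RPKM and ADM, adrenomedullin, at 3.15, 32.4 and 25.6, while HIF1A, the oxygen-regulated factor, was level at 23.0, 23.4 and 30.2. Of 18 measured neuronal and synaptic genes, 5 were higher and 5 lower. SNAP25, of synaptic vesicle fusion, was at 8.72 RPKM in Hep3B with 1 read in HCCLM3 and none in MHCC97H, and UCHL1, a deubiquitinase of neurons, was lower at 11.2, 276 and 141 RPKM.

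S100 proteins, small calcium-binding proteins, were lower in 7 of 12 measured members and higher in 1, with medians of -6.33 and -5.78. S100A6 was at 19.9 RPKM in Hep3B against 3467 in HCCLM3 and 3073 in MHCC97H, and S100A10, the partner of annexin A2, at 8.74, 967 and 903. ANXA2 itself was at 78.4, 512 and 617 RPKM. S100P was at 2.57, 306 and 180.0 RPKM. The exception was S100A14, at 119, 0.385 and 0.489 RPKM. Caveolae genes followed the S100 proteins: CAV2 was at 6.98, 866 and 955 RPKM, and PRKCDBP, cavin 3, at 0.0321, 79.8 and 47.3. ANXA10 was lower too, at 0.292, 121 and 89.6 RPKM, whereas ANXA3, ANXA6 and ANXA9 were higher, ANXA9 at 22.2, 2.66 and 3.36.

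Of 14 measured keratins, KRT8 and KRT18 among them, 8 were lower and 1 was higher. KRT7, a duct keratin, was at 2.55, 48.0 and 25.7 RPKM, and KRT23, at 139, 0.244 and 0.148, was the one on the high side. Junction genes leaned to Hep3B, with 10 higher and 5 lower of 33. Of 15 measured epithelial-mesenchymal regulators, 3 were higher and 4 lower, with factors of both states on the lower side. OVOL2 and ESRP1, which hold the epithelial state, were at 2.93 and 20.1 RPKM in Hep3B. In HCCLM3 they were at 0.00495 and 0.0898, and in MHCC97H at 0.0360 and 0.0613. SNAI1 and ZEB2, known repressors of epithelial genes, were lower, at 0.947, 11 and 12.2 RPKM and at 0.00839, 0.681 and 1.26. The epithelial factors KLF4 and EHF were lower too, at 0.353, 14.1 and 16.5 RPKM and at 0.815, 9.75 and 12.3. VIM, vimentin, the filament of mesenchymal cells, was higher, at 135, 4.65 and 3.26 RPKM. CDH2, N-cadherin, was not called, at 10.2, 18.9 and 19.7 RPKM.

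Matrix and protease genes leaned to the other lines, with 11 lower and 5 higher of 32 matrix genes and 15 lower and 8 higher of 38 proteases and inhibitors. COL6A2 was at 1.06 RPKM in Hep3B against 151 in HCCLM3 and 178 in MHCC97H, and LAMB3, of laminin 332, at 1.49, 26.2 and 15.2. COL17A1, a hemidesmosome collagen, had 1 read in Hep3B and 5.90 and 9.31 RPKM in the others. The plasminogen activator PLAU and its receptor PLAUR were both lower, PLAU at 0.907, 15.6 and 13.3 RPKM and PLAUR at 4.02, 20.3 and 17.6. MMP2, a gelatinase, was at 0.00805, 10.5 and 10.6 RPKM, and TIMP1, an inhibitor of such proteases, at 5.66, 181 and 158. On the high side were the membrane protease ST14, matriptase, at 33.8, 0.752 and 0.600 RPKM and its inhibitor SPINT1 at 61.3, 4.09 and 7.49. BGN, the proteoglycan biglycan, was at 88.9, 0.317 and 0.286 RPKM. Integrin ITGA3 was lower, at 1.92, 63.1 and 80.3 RPKM, and ITGA1 higher, at 10.2, 0.608 and 2.09.

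Genes known from gut and bile duct epithelium were detected in HCCLM3 and MHCC97H and little in Hep3B, with 11 of 22 measured lower and 5 higher. AGR2, a chaperone of mucin-making cells, was at 0.161, 95.5 and 114 RPKM, CDH17, the liver-intestine cadherin, at 0.137, 29.7 and 40.7, and CEACAM6 at 0.714, 135 and 98.1. TFF1, a mucosal peptide, had no reads in Hep3B and at least 306-fold and 486-fold more in the others. MUC5AC was at 0.0169, 7.45 and 5.02 RPKM. Of the higher genes, FABP1 is also in the fatty acid list. VIL1, villin, was at 92.2, 4.92 and 13.6 RPKM, and SOX9, a duct and progenitor factor, at 43.9, 7.59 and 6.98. Galectins, which bind galactose sugars, were lower in 6 of 9 measured members, with LGALS4 at 0.903, 83.2 and 180.0 RPKM.

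HOX genes, which set position along the body, and cancer-testis genes were measured in part. Of 39 HOX genes, 26 were in the tables, 11 passed the filter and 6 were lower, with none higher. HOXA11 was at 0.0361, 9.89 and 7.60 RPKM, and HOXB6 had no reads in Hep3B against 2.14 and 3.66 RPKM. Of 54 cancer-testis genes, which are normally limited to germ cells, 43 were in the tables, 15 passed the filter and 10 were lower, with none higher. SPANXA1 was at 0.0436, 234 and 39.7 RPKM and SSX1 at 0.0116, 85.0 and 7.46, so that HCCLM3 also exceeded MHCC97H. Members of both families are near-identical copies, and the split among them is uncertain.

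Chromatin genes had 6 of 38 measured members higher and none lower. All 3 TET enzymes, which oxidise methylated cytosine, were among them. TET1 was at 2.37, 0.125 and 0.106 RPKM, TET3 at 12.8, 1.14 and 1.54, and TET2 at 2.09, 0.358 and 0.411. The de novo methyltransferases DNMT3A and DNMT3B were higher too, at 24.1, 1.75 and 2.29 RPKM and at 14.4, 2.71 and 3.28. DNMT1, the maintenance enzyme, was at 91.4, 51.8 and 52.4 RPKM, and EZH2 at 12.3, 13.5 and 13.5. In RNC-mRNA the log2 ratios of TET2 were 0.11 and -0.00 in place of 2.25 and 2.10. Of 408 measured zinc finger genes named ZNF, 31 were higher (7.6%, beside 8.74% of all genes) and 5 lower (1.23%, beside 7.73%).

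Among single genes with the largest gaps outside these lists, NTS encodes neurotensin, a gut and brain peptide, and was at 76.3 RPKM in Hep3B with 1 read in HCCLM3 and 6 in MHCC97H, ratios of 12265 (2201 to 484488) and 2246 (1032 to 6122). RELN, a large secreted protein known from neuronal migration and made in liver, was at 68.2, 0.0392 and 0.0393 RPKM. MSC, the helix-loop-helix repressor musculin, had no reads in Hep3B and 116 and 102 RPKM in the others, at least 10352-fold and 9144-fold more. MALL and PLP2, small membrane proteins, were at 0.130, 201 and 173 RPKM and at 0.265, 284 and 264. C19orf33 was at 0.145, 156 and 157 RPKM.

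Families were also read for members on opposite sides. Of 89 families examined, 54 had members called in both directions, 13 in the higher direction alone, 14 in the lower alone and 8 in neither. Over all genes 8.74% were higher and 7.73% lower, so a family with many measured members can hold both calls at these shares. Whether the count of 54 exceeds that was not tested. Among pairs not described above, ACSL4, which prefers arachidonic acid, was at 74.7, 8.57 and 8.12 RPKM and ACSL5 at 0.911, 14.2 and 10.8. GPC1, a glypican, was at 3.35, 179 and 158 RPKM, opposite to GPC3. SOX6 was at 5.89, 0.128 and 0.126 RPKM and SOX2, a pluripotency factor, at 0.491, 21.7 and 22.3. MUC6 was at 10.2, 1.08 and 0.835 RPKM and MUC4 at 0.0555, 7.97 and 12. ST6GAL1, which caps liver glycoproteins with sialic acid, was at 67.8, 10.7 and 12.8 RPKM and ST3GAL1 at 0.330, 26.8 and 33. SLC38A4, a liver amino acid transporter, was at 1.63 RPKM in Hep3B with 1 and 2 reads in the others, and SLC38A5 was at 0.153, 30.8 and 30.1 RPKM.

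**Figure D4:**
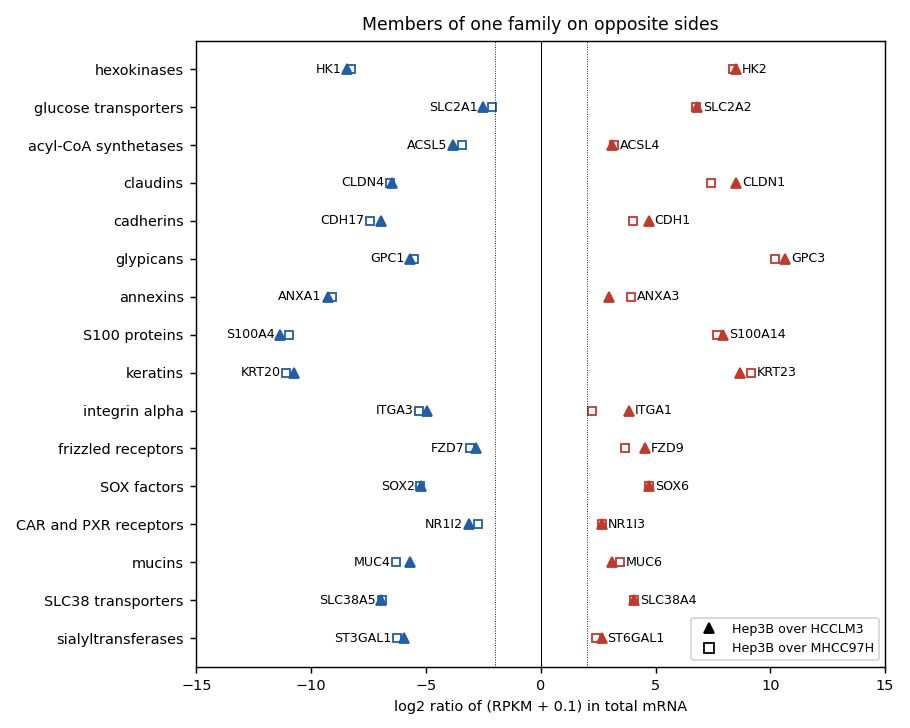
Log2 ratios of (RPKM + 0.1) of Hep3B over HCCLM3 (triangles) and over MHCC97H (squares) for 16 pairs of relatives, each pair on its own line, with dotted lines at a ratio of 4. Each pair was chosen to hold a higher member (right) and a lower member (left) in Hep3B, as in HK2 (8.52 and 8.37) and its relative HK1.

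Some neighbouring genes shared their call. Genes were ordered by RefSeq (GRCh38.p14) for neighbourhood alone, with 12408 placed. Of the placed higher genes, 348 of 1093 (31.8%) lay in 146 runs of at least 2 adjacent measured genes, and of the placed lower genes 332 of 965 (34.4%) lay in 139 runs. With 8.74% of all genes higher and 7.73% lower, some neighbours share a call at these shares alone. Whether the runs exceed that was not tested. Some runs hold close copies, such as the AKR1C genes, whose reads may be divided between them. The longest higher runs had 9 genes. The run around PROZ held F7 and F10 together with genes that have no plasma role: LAMP1, a lysosomal membrane protein, was at 141, 26.5 and 25.6 RPKM, CUL4A, a ubiquitin ligase scaffold, at 44.8, 8.41 and 8.41, and PCID2 at 23.5, 3.67 and 3.36. The log2 ratios of the genes next to that run were also positive without reaching the call against both, with TUBGCP3 at 2.11 and 1.95 and DCUN1D2 at 1.47 and 1.66. The other run of 9 held 7 SERPINA genes, from SERPINA10 at 9.61, 0.0396 and 0.0859 RPKM to SERPINA3 at 7.16, 0.710 and 0.628, together with PPP4R4 and DICER1. SERPINA6, the cortisol carrier, was at 28.2, 0.0861 and 0.409 RPKM, and SERPINA5, the inhibitor of protein C, at 112, 0.433 and 0.757. The genes before this run were called the other way: IFI27L2 was at 0.763, 27.2 and 25.4 RPKM.

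The longest lower run had 7 genes, from S100A10 to S100A2, and S100A14, 2 measured genes further along, was called higher. The AKR1C genes formed a run with AKR1E2, and the measured gene next to it, UCN3, the peptide urocortin 3, was at 2.35 RPKM in Hep3B, with no reads in HCCLM3 and 0.0117 RPKM in MHCC97H. CAV1, CAV2 and MET ran together with MDFIC, at 2.94, 75.4 and 74.6 RPKM, and TES, a focal adhesion protein, at 42.2, 233 and 203. CAPZA2, the next gene after MET, was level at 25.3, 31.3 and 35.2 RPKM. Copy number was not analysed here, so its part in any run was not tested.

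**Figure D5:**
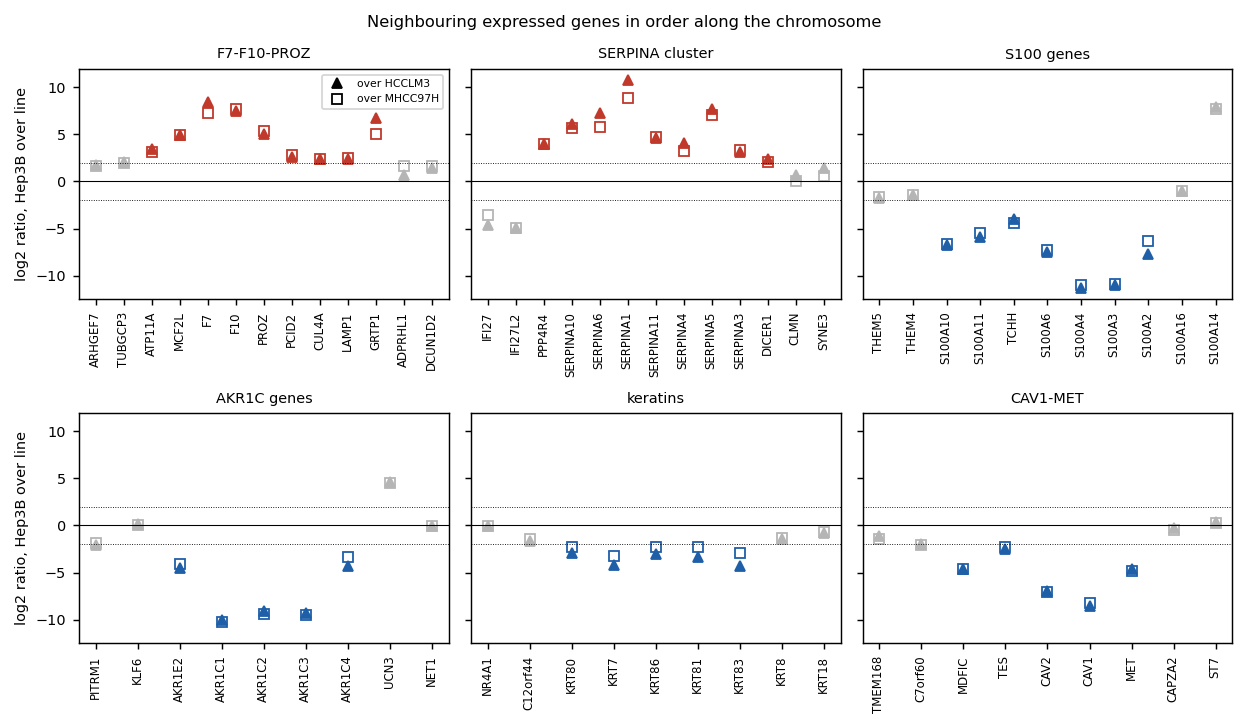
Log2 ratios of (RPKM + 0.1) of Hep3B over HCCLM3 (triangles) and over MHCC97H (squares) for measured genes in their order along the chromosome in 6 runs, coloured inside the run and grey beside it, with dotted lines at a ratio of 4. In the F7 run LAMP1 is at 2.41 and 2.46, in the CAV1 run MET is at -4.61 and -4.79, and CAPZA2 beside it at -0.31 and -0.48.

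Much of the transcriptome was level. None of a subset of 39 ribosomal protein genes, a subset of 34 respiratory chain genes and 35 chosen genes of the core machinery was called, and their medians were -0.09 and -0.06, -0.23 and -0.16, and -0.27 and -0.20. Examples chosen for being closest to equal in the 3 lines, and so level by choice, were EIF4G1, HNRNPA2B1 and RPS25. EIF4G1, the translation scaffold, was at 170.0, 174 and 177 RPKM. HNRNPA2B1, an RNA-binding protein, was at 158, 163 and 165 RPKM, and RPS25 at 215, 219 and 220.0. Proliferation genes were level too: MKI67 was at 21.6, 17.7 and 22.1 RPKM and MYC at 104, 97.3 and 78.9. RPL8, at 1276, 2998 and 2850 RPKM, and FTL, the ferritin light chain, at 4705, 11749 and 10505, were lower in Hep3B without reaching the ratio. At the edge of the call, HELZ lay just inside at 7.45, 1.70 and 1.78 RPKM, and TM9SF2 just outside, at 46.4, 11.5 and 11.1. FAM105A lay on the filter, at 0.731, 1.0 and 0.804 RPKM.

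The same ratios were read in RNC-mRNA, separate libraries of the same lines. Of the 1123 higher genes, 897 (79.9%) reached a ratio of 4 against both lines there, and of the 994 lower genes also 897 (90.2%). For the higher genes the median log2 ratios over HCCLM3 and MHCC97H were 3.73 and 3.66 in total mRNA, beside 3.88 and 3.76 among ribosome-bound messages. For the lower genes they were -3.61 and -3.56, beside -3.84 and -3.94. The sign in RNC-mRNA was opposite against either line for 11 higher and 2 lower genes. CXCL1, a neutrophil chemokine, had log2 ratios of 3.12 and 2.51 in total mRNA but -0.57 and -1.04 on ribosomes. GCGR, the glucagon receptor, had -4.22 and -3.00 in total mRNA but -0.19 and 0.56 on ribosomes. IGFBP1, a liver IGF binding protein, had -2.43 and -2.15 and then -0.14 and 0.30.

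Markers of other cell types were read in the same libraries. Of 8 leukocyte markers, 5 passed the filter, and their summed level was 158 RPKM in Hep3B against 78.9 in HCCLM3 and 54.0 in MHCC97H. LYZ, lysozyme, was at 78.3, 0.860 and 0.787 RPKM and CD74, the chaperone of class II antigen presentation, at 31.9, 1.5 and 0.860, and both were called higher. CD68, at 46.0, 74.8 and 50.2 RPKM, held most of the sum in HCCLM3 and MHCC97H. ITGAM was lowest in Hep3B, at 0.26, 1.16 and 1.45 RPKM. Neither CD68 nor ITGAM was called. Whether leukocyte RNA had a part in these values was not tested. PTPRC, which defines leukocytes, was at 0.103, 0.0723 and 0.0619 RPKM, and CD3E had 2, 0 and 2 reads. The 6 endothelial markers summed to 1.25, 40.5 and 33.5 RPKM, mostly through ESAM at 0.600, 36.9 and 24.8, while VWF had no reads in Hep3B and 0.0601 and 0.0483 RPKM in the others. The 8 stellate and fibroblast markers summed to 14.6, 5.98 and 3.57 RPKM. In Hep3B the sum was mostly PDGFRB and PDGFRA, which were under 0.1 RPKM in HCCLM3 and MHCC97H. COL3A1 went the other way and was called lower, at 0.00815, 2.49 and 0.408 RPKM. LUM was at 0.563, 1.66 and 1.61 RPKM and COL1A1 at 0.337, 0.567 and 0.508, and neither was called. Of the 3 erythroid markers in the tables, none reached 1 RPKM in any line.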

How the data were processed

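Total mRNA of the 3 lines was compared, and RNC-mRNA, a different fraction of the same lines, was read beside it. The read count per gene and the RPKM were deposited by the authors in 1 table per library, per the file headers. The submitters' processing notes name hg19 and edgeR without their roles. No aligner, and no rule for reads shared between genes, is given in the sources used here. Which table holds which fraction was read from the letters A and C in the tables' names, whose meaning no label states outright. Deposited gene-model lengths and library totals were recovered from count and RPKM to a relative deviation of 8.9e-09. Totals of gene reads lay between 119086844 and 132684373.

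Ratios used RPKM + 0.1 and genes at 1 RPKM or more in at least 1 library. With 1 library a group no test was possible, so a ratio of 4 was the size rule, and ratios of RPKM in the text carry exact conditional binomial 95% intervals from the counts, without the added 0.1. A library with 0 reads was set to a floor of 3 reads. PCR copies were not marked, so intervals and floors cover counting error only. Genes named were the 15 per direction with the largest smaller ratio, up to 4 per direction in each of 47 lists, family pairs, members of the 10 longest neighbour runs, genes at the thresholds and level genes. Other members of a list were added as examples after their values were seen. Members and lists were chosen with earlier results of these data known. RefSeq (GRCh38.p14) gave symbols for 18046 of 19089 names and the gene order. Some genes are not reported here. Intervals and calls were tested on simulated data. Tools were Python 3.11.15, numpy 2.4.6, pandas 2.3.3, scipy 1.17.1, matplotlib 3.10.9 and R 4.3.3 with edgeR 4.0.16, used for TMM factors in 1 of 11 alternatives. These changed the added constant, the filter, the scaling, the ratio or the fraction.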

Additional observations from a re-analysis of the deposited data

How the results depend on the processing

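No gene changed direction under any of the 11 alternatives among those called in both settings. For most alternatives this was fixed in advance. The added constant, the filter and the ratio cannot reverse a ratio. Rescaling moved log2 ratios little, with the largest shift -0.051 for MHCC97H with gene read totals. Only RNC-mRNA could reverse a call, and genes that lost the call there are not covered. With 1 RPKM added in place of 0.1, 666 genes were higher and 576 lower against both lines, 742 and 662 against HCCLM3, and 699 and 661 against MHCC97H. With a filter at 5 RPKM, 682 were higher against both, 781 against HCCLM3 and 721 against MHCC97H, and 719 were lower against MHCC97H. A ratio of 2 gave 2316 higher and 2155 lower against both, 2713 and 2434 against HCCLM3, and 2495 and 2350 against MHCC97H. A ratio of 8 gave 714 and 596, 792 and 687, and 775 and 675. These alternatives count fewer or more genes by construction. The other settings left each count within 1.5 times, among them rescaling to the median ratio or upper quartile, TMM factors, gene read totals, 0.01 RPKM added and no filter. In RNC-mRNA 46.1% of the called genes were higher, beside 53% in mRNA. No paired analysis was possible because each line and fraction has 1 library. Of the values of single genes and lists, 2302 moved under an alternative, for a gene by more than its counting interval, 7683 did not, and 5 reversed, each in RNC-mRNA. There the log2 ratios were -0.57 over HCCLM3 and -1.04 over MHCC97H for CXCL1, and over MHCC97H 0.56 for GCGR, 0.30 for IGFBP1 and -0.00 for TET2. The cause was not tested. For the same reason as above no library could be left out, and spread between cultures is unknown.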
